A study of Rattus norvegicus with 24 samples.

Results

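Of the 19963 targets measured in these rat skin wounds, 48 belong to the proteasome. They were picked by symbol, as every target whose name is Psma, Psmb, Psmc, Psmd, Psme, Psmf or Psmg followed only by a number. No measured value selects among them, but the family was chosen with earlier results of these data known. By role, 8 encode the alpha ring of the 20S core, 4 its structural beta subunits, 3 its constitutive catalytic subunits, 4 the catalytic subunits of the immunoproteasome and thymoproteasome, 6 the ATPases of the 19S regulatory particle, 11 its other subunits, 7 assembly chaperones, and 5 the activators and the inhibitor Psmf1. All 48 symbols were found in RefSeq's GRCr8 rat gene table. The series also holds mouse gene names such as H2-K1 and H2-D1, so a matching symbol does not show that a probe was made for rat.

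The proteasome is the main protease of the cytosol and nucleus. Its 20S core holds the cutting sites inside a barrel of alpha and beta rings, and the 19S particle recognises ubiquitin-tagged proteins, removes the ubiquitin, unfolds the protein and feeds it into the barrel. Under interferon, cells replace the catalytic subunits Psmb6, Psmb7 and Psmb5 by Psmb9, Psmb10 and Psmb8, which with the activator PA28 (Psme1 and Psme2) favour peptides fit for display on MHC class I. Immune cells carry much of this immunoproteasome even at rest, and skin wounds hold many immune cells.

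The study concerns a sprayable hydrogel with a nanozyme (CuNZ@Gel) for diabetic wounds. Male SD rats, aged 5 weeks, had been made diabetic with streptozotocin (STZ), and all 3 treatments share this background. Full-thickness skin defects of 8 mm were held open with splints and sutures, were left as Sham, treated with the hydrogel alone (Gel) or with CuNZ@Gel, and were taken on day 7. GeoMx profiling, in which probes hybridised to fixed, paraffin-embedded sections are released by light from chosen areas and sequenced, gave 24 areas. Each treatment has 2 numbered specimens, each specimen 2 regions labelled mac, and each region Segment 1 and Segment 2, drawn by positive immunofluorescence. Neither the labels nor the files name the stains, the cells of each segment, the composition of CuNZ or what Sham wounds received, or say whether a specimen is 1 animal, so p-values compare these specimens only. The spread behind these p-values and intervals is mostly borrowed from other targets, as described under processing.

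Counts recovered from the deposited values totalled 86386 to 1476512 per area, with a median of 533137 in Segment 1 and 170042 in Segment 2, and a median of 2.19% of all targets in Segment 1 areas but 28.5% in Segment 2 areas lay at 1 count. The fibroblast genes of a marker list were above background for 8 of 10 members, the macrophage genes for 6 of 12, the endothelial genes for 1 of 8, the T and NK cell genes for 3 of 10, the neutrophil genes for 1 of 8, and the keratinocyte genes for 0 of 10, so the markers of the epidermis were not measured above background in areas labelled skin. The summed fibroblast signal was 14544 and 19743 in the Sham specimens, 10777 and 11734 under CuNZ@Gel, and 4143 and 9625 under Gel. Col3a1 made up most of it, at 10228 and 14316, 7645 and 8218, and 2560 and 6949. Of the 10 fibroblast genes, 9 had negative differences from Sham under Gel and 7 under CuNZ@Gel. The macrophage sum overlapped between treatments, at 825 to 926 in Sham, 886 to 902 under CuNZ@Gel and 752 to 1004 under Gel. Single macrophage genes moved apart. By the limma test given below, 1 of 12 was called higher and 1 lower in CuNZ@Gel against Sham, beside 1.31% of all targets. In Gel against Sham 0 were called, beside 2.42%, and in CuNZ@Gel against Gel 1, lower, beside 0.943%. Mrc1 had 55.0 and 53.8 in Sham, 73.3 and 62.9 under Gel, and 27.0 and 31.0 under CuNZ@Gel. Lyz2 had 152 and 208, 156 and 230, and 282 and 292 in that order. In such areas, fewer cells of a type and less RNA per cell cannot be told apart, and the part of cell makeup in the differences below was not tested.

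A majority of the proteasome targets, 29 of 48, gave a signal above background, which here means above the 99th percentile of 1127 odorant, pheromone and trace amine receptor targets of the same area (11.4 to 21.4 in scaled signal) in at least 4 areas. For 14 of them this held in all 24 areas. By role, 6 of 8 alpha subunits, 2 of 4 structural beta subunits, 2 of 3 constitutive catalytic subunits, 3 of 4 immunoproteasome and thymoproteasome subunits, 4 of 6 ATPases, 8 of 11 other 19S subunits, 4 of 5 activators and inhibitor, and 0 of 7 assembly chaperones passed. Median signals over the 24 areas ran from 2.81 for Psmd7 to 121 for Psme1. The 15 members above background in no area include Psma8, the alpha subunit of the testis, and Psmb11, the catalytic subunit of the thymus, but also subunits that every proteasome needs, such as Psma3, Psmb2, Psmb4, Psmc2 and Psmc5. Signals depend on each target's probe, so the level of one target is not set against that of another, and a low signal does not show a low transcript level. For 19 members RefSeq lists pseudogenes named after them, up to 7 for Psmb3, and the files do not say which copies a probe binds.

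**Figure D1:**
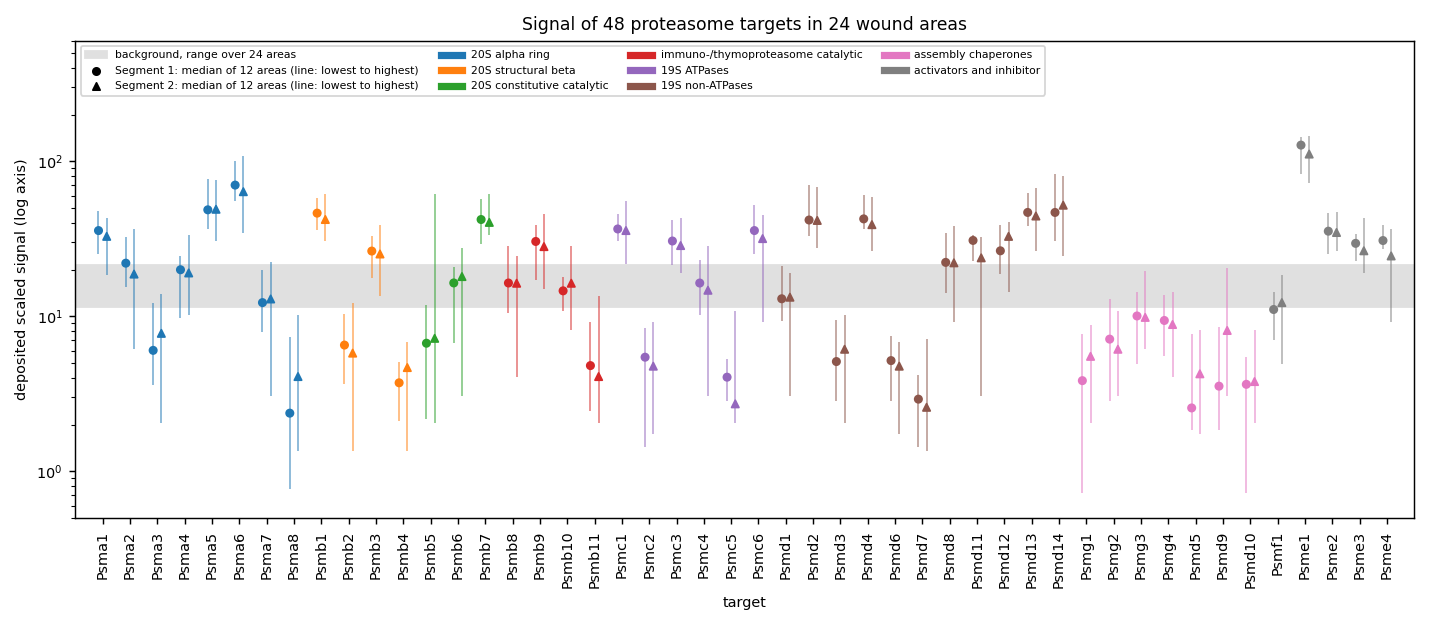
Scaled signal (log axis) of the 48 proteasome targets, coloured by role; circles are medians of 12 Segment 1 areas, triangles of 12 Segment 2 areas, vertical lines run from the lowest to the highest area, and the grey band is the range of the background over the 24 areas. Psme1, with a median of 121, lies above the band in every area, whereas the medians of the 7 assembly chaperones lie below it.

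No proteasome member passed the test between treatments. Treatments were compared over the 2 specimens of each with limma, on log2 of signal plus 1 averaged over a specimen's 4 areas, with Benjamini-Hochberg adjustment over 19728 targets and a threshold of 0.05. Of 48 members, 0 were called in Gel against Sham, where 2.42% of all targets tested and 7.59% of the 4205 other targets of like level (the range of mean level of the 29 members above background) were called. In CuNZ@Gel against Sham, 0 of 48 were called beside 1.31% of all targets and 3.88% of those of like level, and in CuNZ@Gel against Gel 0 of 48 beside 0.943% and 3.07%. At an unadjusted p under 0.05 the members numbered 6, 9 and 2 in these comparisons, or 12.5%, 18.8% and 4.17%, beside 12.1%, 10.6% and 6.7% of all targets. edgeR's quasi-likelihood test on the recovered counts called 0, 1 (Psmc2, which was above background in no area) and 0 members, and DESeq2 called 0, 0 and 0. Both comparisons with Sham share the Sham specimens. Where specimens of different treatments are said below not to overlap, the share of like targets that separate in that way was not counted. Separation of so few specimens is not read as a trait of a member. For all 29 members above background, the 95% intervals of Gel against Sham and of CuNZ@Gel against Gel lay within a change of 1 on the log2 scale, as did those of 26 in CuNZ@Gel against Sham, with the median interval reaching 0.41 to either side.

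The subunits of the core and of the regulatory particle had negative median differences from Sham in both hydrogel groups, as other targets of like level had. For the 22 20S and 19S subunits above background, the median log2 difference from Sham was -0.26 under Gel and -0.32 under CuNZ@Gel, beside -0.17 and -0.17 for targets of like level. Above 0 lay 3 and 2 of the 22 (13.6% and 9.09%), beside 28.5% and 27.3% of targets of like level. The 10 subunits of the 20S core had medians of -0.31 and -0.35, and the 12 of the 19S particle -0.22 and -0.25. The gap between the medians of the 22 subunits and of like targets, -0.09 under Gel and -0.15 under CuNZ@Gel, shrank to -0.02 and -0.03 without Sham specimen 1, and the subunits' own medians to -0.04 and -0.11 with quantile normalization. Between the hydrogels the 22 subunits had a median of -0.03, and the targets of like level one of 0.00492.

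**Figure D2:**
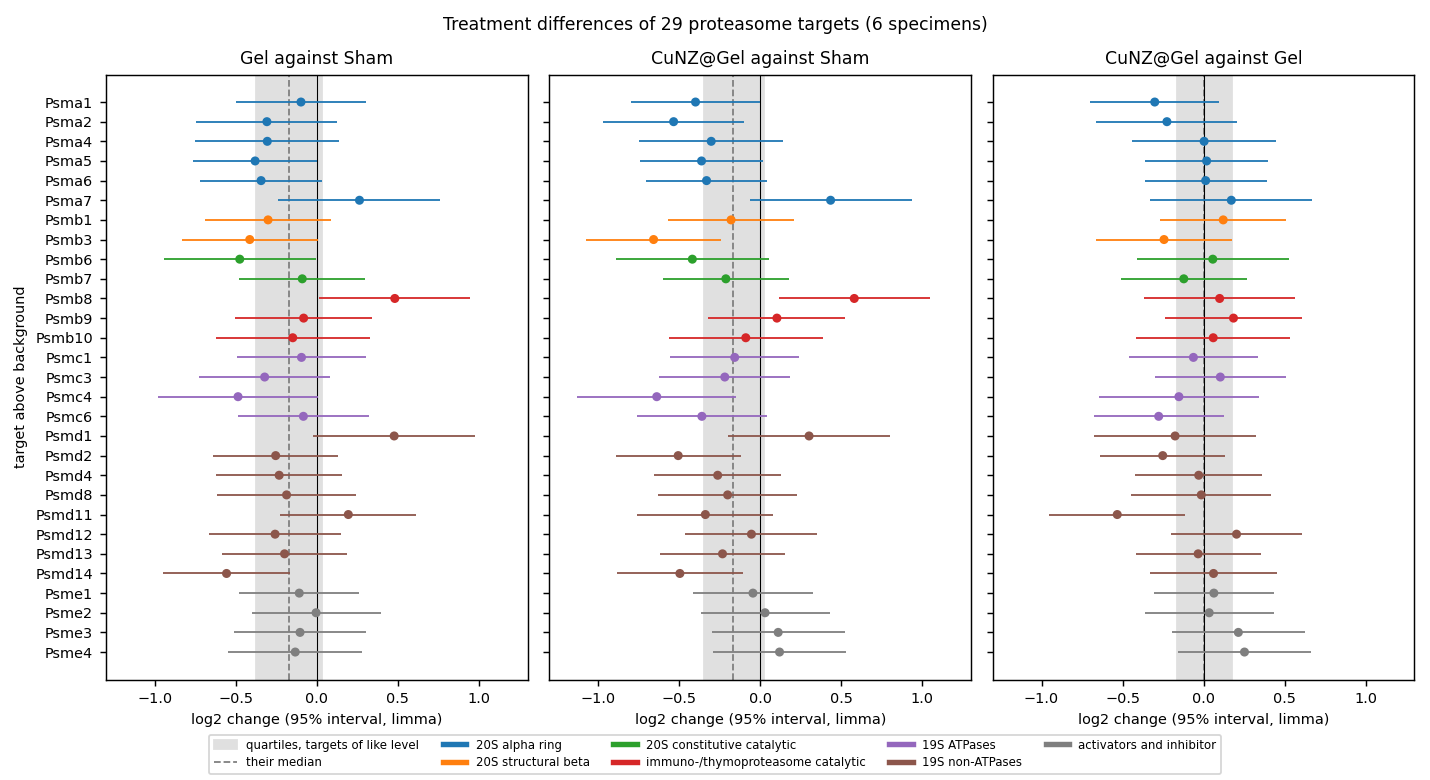
Log2 differences between treatments for the 29 proteasome targets above background, with 95% intervals from limma over 6 specimens, coloured by role; the grey band spans the quartiles of 4205 other targets of like level and the dashed line is their median. Most 20S and 19S subunits lie left of 0 in both comparisons with Sham, as most of the band does, and Psmb8, Psma7 and Psmd1 lie right of it.

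Among the alpha subunits, which form the gate of the barrel, Psma6 had a signal of 90.4 and 69.8 in the Sham specimens, 59.1 and 68.8 under Gel, and 55.1 and 71.3 under CuNZ@Gel. Sham specimen 2 thus lay among the treated specimens, and the differences of -0.34 and -0.33 had adjusted p-values of 0.481 and 0.552. Psma5 had 59.7 and 58.2 in Sham, 42.3 and 50.01 under Gel, and 42.0 and 49.5 under CuNZ@Gel, with every treated specimen below both Sham specimens, yet adjusted p-values of 0.416 and 0.508. Psma2 stood at 25.7 and 24.7 in Sham, 19.2 and 21.8 under Gel, and 20.05 and 16.6 under CuNZ@Gel, where the difference from Sham was -0.53 (SE 0.22, adjusted p = 0.31). Psma7 alone of the 6 had positive differences from Sham, 0.26 and 0.43, but its Sham specimens of 9.35 and 14.3 enclosed Gel's 11.2, and it was above background in 8 of 24 areas.

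The structural beta subunit Psmb3 had the smallest p of any member in CuNZ@Gel against Sham. Its signal in the 8 Sham areas ran from 26.7 through a median of 31.2 to 38.8, in the 8 Gel areas from 16.4 through 25.3 to 32.7, and in the 8 CuNZ@Gel areas from 13.6 through 19.4 to 26.1. Every CuNZ@Gel area therefore lay below every Sham area, whereas Gel areas overlapped both. The 8 areas of a treatment come from 2 specimens and are not replicates, and how many like targets separate in this way was not counted. The specimens averaged 31.5 ± 1.48 (SD, n = 2) in Sham, 23.9 ± 0.314 under Gel and 19.8 ± 0.155 under CuNZ@Gel. The difference of CuNZ@Gel from Sham was -0.66 (SE 0.21, adjusted p = 0.117 by limma), past the threshold when only the 5483 targets above background were tested or when areas served as samples with the specimen as a random block. Psmb1, the other structural beta subunit above background, had 50.2 ± 1.72 in Sham, 41.3 ± 9.16 under Gel and 44.3 ± 4.68 under CuNZ@Gel, with all 4 treated specimens below both Sham specimens and adjusted p-values of 0.584 and 0.809.

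The catalytic subunits set the peptides that the proteasome cuts, so the constitutive and the interferon-inducible forms are taken as pairs. Promoters of 43 members were matched in RefSeq's promoter table (GRCr8), each window running from 250 bases before the start site to 50 after it. The core of the interferon-stimulated response element (GAAA, any 2 bases, then GAAA, on either strand) was found in 7 of 43 member windows (16.3%) and in 3.92% of 33365 windows of all genes, and the core of the antioxidant response element (TGACNNNGC, either strand), the kind of site that NRF2 binds, in 8 of 43 (18.6%) and in 12.1% of all. No member window held the motifs overlapping each other. The first motif was in the windows of Psmb8, Psmb10 and Psme2, and also in those of Psma4, Psmb3, Psmd7 and Psmg4, which are no interferon-inducible catalytic or PA28 subunits, while the inducible Psmb9 and Psme1 lacked its letters. The windows below are those of 3 interferon-inducible members with the first motif and of a constitutive catalytic subunit with the second, and capitals mark the motif letters. Measured to its first letter, the first motif starts 4 bases before the start site in Psmb8, 73 and 17 before it in Psmb10, and 53 before it in Psme2. In Psmb8 its letters thus run across the start site. The antioxidant core of Psmb6 starts 24 bases before the start site. The windows lie on GRCr8, that of Psmb8 at chr20:4656982-4657281 and that of Psmb10 at chr19:50743243-50743542, both on the minus strand, that of Psme2 at chr15:33052702-33053001 on the minus strand, and that of Psmb6 at chr10:55737638-55737937 on the plus strand. Other motifs were searched too. The gamma-activated site core (TTCNNNGAA) was in 9.3% of member windows and 8.88% of all, and the CCAAT box in 48.8% and 37.5%. The E26 transformation-specific core (CCGGAAG) was in 34.9% and 8.77%, and the GC box (GGGCGG) in 72.1% and 33.1%. A match of letters describes the window and shows no binding.
Psmb8: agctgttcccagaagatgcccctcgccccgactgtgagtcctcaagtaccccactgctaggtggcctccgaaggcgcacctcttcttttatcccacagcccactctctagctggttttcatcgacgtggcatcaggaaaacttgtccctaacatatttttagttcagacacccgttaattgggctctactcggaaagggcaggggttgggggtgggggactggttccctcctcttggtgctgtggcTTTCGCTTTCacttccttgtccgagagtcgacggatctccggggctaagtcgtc
Psmb10: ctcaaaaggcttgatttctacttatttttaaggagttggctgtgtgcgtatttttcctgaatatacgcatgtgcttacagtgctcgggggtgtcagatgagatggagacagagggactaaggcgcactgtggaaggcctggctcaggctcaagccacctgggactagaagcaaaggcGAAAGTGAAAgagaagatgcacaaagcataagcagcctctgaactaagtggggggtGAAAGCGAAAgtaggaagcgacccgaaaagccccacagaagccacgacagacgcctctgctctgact
Psme2: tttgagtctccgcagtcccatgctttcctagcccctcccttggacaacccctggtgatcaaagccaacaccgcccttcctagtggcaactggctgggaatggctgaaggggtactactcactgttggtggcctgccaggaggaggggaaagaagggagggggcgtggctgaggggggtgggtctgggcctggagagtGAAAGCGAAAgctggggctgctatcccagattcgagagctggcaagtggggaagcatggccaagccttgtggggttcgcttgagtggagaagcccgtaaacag
Psmb6: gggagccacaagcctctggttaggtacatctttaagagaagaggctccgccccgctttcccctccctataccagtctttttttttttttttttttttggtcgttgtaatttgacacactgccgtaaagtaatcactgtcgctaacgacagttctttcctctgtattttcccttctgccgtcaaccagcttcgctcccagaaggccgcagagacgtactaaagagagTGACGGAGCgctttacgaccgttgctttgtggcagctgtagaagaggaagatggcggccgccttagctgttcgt

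Psmb8, which replaces Psmb5, had the largest positive difference among members above background in both comparisons with Sham. Its 8 areas ran from 4.09 through a median of 12.9 to 20.4 in Sham, from 13.1 through 17.4 to 24.5 under Gel, and from 12.3 through 20.4 to 28.3 under CuNZ@Gel, so the areas overlapped. The specimens stood at 14.5 and 11.9 in Sham, 19.5 and 16.1 under Gel, and 17.6 and 21.4 under CuNZ@Gel, with all 4 treated specimens above both Sham specimens. The difference was 0.48 (SE 0.24, adjusted p = 0.387) under Gel and 0.58 (SE 0.24, adjusted p = 0.297) under CuNZ@Gel, and it stayed between 0.27 and 0.69, and between 0.37 and 0.79, in 23 alternative settings without passing the threshold in any. Several of these settings alter only the test or the targets tested and leave the difference as it was.

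The specimens of the other inducible subunits overlapped between treatments. Psmb9, which replaces Psmb6, had 31.7 and 24.7 in Sham, 21.4 and 31.1 under Gel, and 24.5 and 35.9 under CuNZ@Gel, so specimens of 1 treatment differed as much as treatments did. Psmb10, which replaces Psmb7, had 16.4 and 14.8, 13.0 and 16.7, and 13.4 and 16.6 in the same order. The intervals of CuNZ@Gel against Sham were -0.32 to 0.53 for Psmb9 and -0.56 to 0.39 for Psmb10. For the 3 inducible subunits above background the median difference from Sham was -0.08 under Gel and 0.10 under CuNZ@Gel, above the -0.17 of targets of like level in both. In CuNZ@Gel against Sham the gap to them ran from 0.03 without CuNZ@Gel specimen 2 to 0.51 without CuNZ@Gel specimen 1, and the median itself from -0.18 to 0.39 in the same settings, so it changed sign.

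Of the constitutive partners, Psmb6 had 21.1 and 18.1 in Sham, 15.6 and 13.5 under Gel, and 14.2 and 16.9 under CuNZ@Gel, with both Sham specimens above the other 4. Its differences of -0.47 and -0.42 had adjusted p-values of 0.404 and 0.546. Psmb7 had 45.1 ± 0.022, 42.3 ± 1.91 and 38.3 ± 3.39 (SD, n = 2) in Sham, Gel and CuNZ@Gel, with intervals of the difference from Sham of -0.48 to 0.30 and -0.60 to 0.18. Psmb5 was above background in 1 of 24 areas: 61.3, or 30 counts, in Segment 2 of region 2 of Sham specimen 2, where the other Sham areas lay between 2.04 and 7.45. With that area the mean signal was 11.2 in Sham, 6.92 under Gel and 8.72 under CuNZ@Gel, whereas the differences from Sham on the log2 scale were positive, 0.24 and 0.50 (adjusted p = 0.83 and 0.586), so no direction is read for it.

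Set against its partner within a specimen, the log2 level of Psmb9 minus that of Psmb6 was 0.55 and 0.41 in Sham, 0.46 and 1.29 under Gel, and 0.95 and 1.05 under CuNZ@Gel. Both CuNZ@Gel specimens lay above both Sham specimens, while 1 Gel specimen lay between the Sham values and the other above all. Psmb10 minus Psmb7 was -1.39 and -1.53 in Sham, -1.60 and -1.43 under Gel, and -1.57 and -1.10 under CuNZ@Gel, with overlap of all 3 treatments. Psmb8 minus Psmb5 was 1.92 and 0.14 in Sham, 1.18 and 1.37 under Gel, and 0.95 and 1.28 under CuNZ@Gel, so the Sham specimens enclosed all others, and here Psmb5 lay under the background in all areas but 1. The offset between partners depends on their probes, so only its change between specimens is read, and with 2 specimens against 2 it was not tested.

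**Figure D3:**
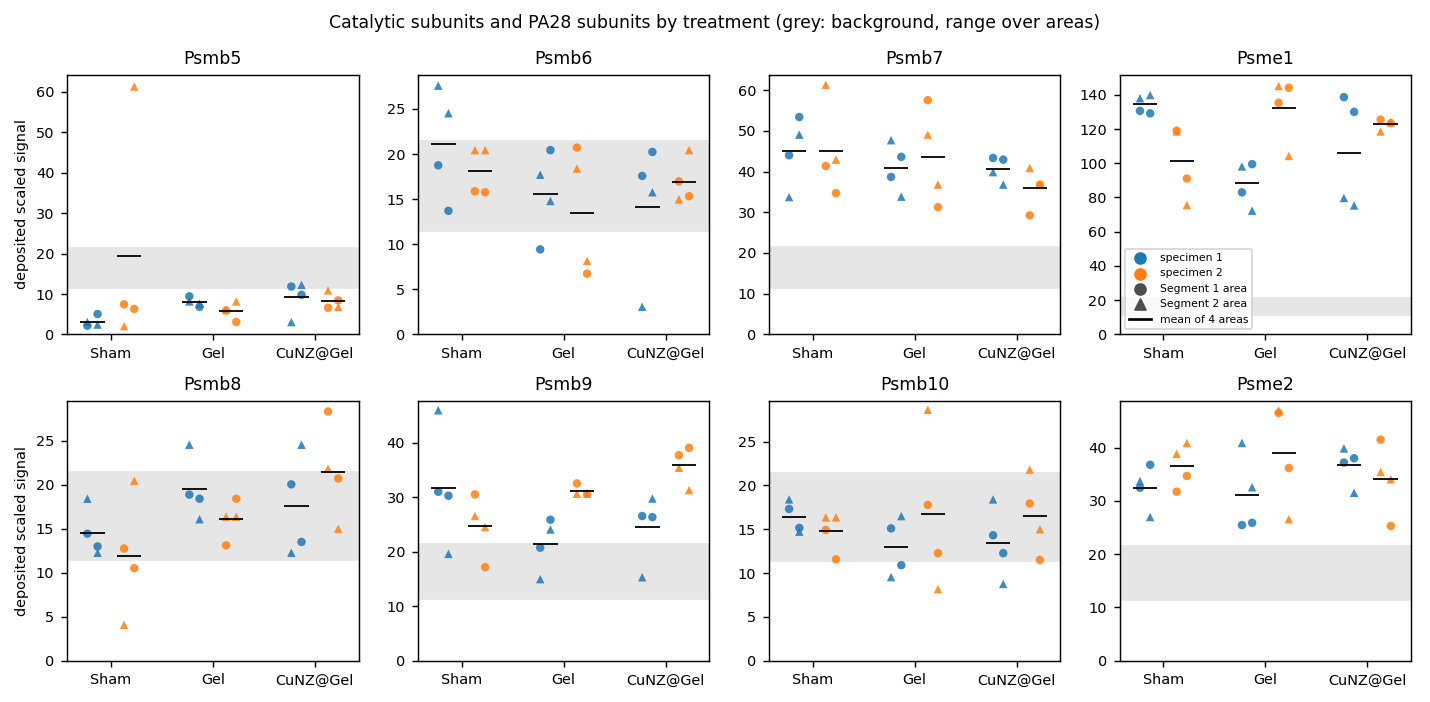
Scaled signal of the constitutive catalytic subunits Psmb5, Psmb6 and Psmb7, the inducible Psmb8, Psmb9 and Psmb10, and the PA28 subunits Psme1 and Psme2 in each of 24 areas, by treatment; circles are Segment 1, triangles Segment 2, colours the specimens, black lines the mean of a specimen's 4 areas, and the grey band the range of the background. Psmb8's treated specimens average 16.1 to 21.4 and its Sham specimens 11.9 and 14.5, and a single Sham area at 61.3 sets the mean of Psmb5.

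Among the ATPases, the ring that unfolds proteins, Psmc4 had 21.2 and 15.9 in Sham, 13.4 and 15.1 under Gel, and 9.50 and 16.1 under CuNZ@Gel. CuNZ@Gel specimen 2 lay among the Sham values, and the difference of -0.64 (SE 0.25) had an adjusted p of 0.264. Psmc3 had 34.3 ± 0.975, 27.7 ± 3.39 and 29.2 ± 0.153 in Sham, Gel and CuNZ@Gel, with adjusted p-values against Sham of 0.57 and 0.766. Psmc1 and Psmc6 differed from Sham by between -0.36 and -0.08. Psmc2 had 2.64 and 3.43 in Sham, 6.004 and 5.49 under Gel, and 6.21 and 6.83 under CuNZ@Gel, differences of 0.75 and 0.88 (adjusted p = 0.219 and 0.142), but every one of its areas lay under the background. Of the 19 members not above background, 17 and 16 (89.5% and 84.2%) had positive differences from Sham in the 2 comparisons. So had 57.8% and 54.9% of all targets tested, but 32.2% and 29.9% of those above background. Most targets tested lay under the background, and the median of all was 0.06 and 0.04.

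Of the other 19S subunits, Psmd14, the deubiquitinase that frees ubiquitin from substrates, had the smallest p of any member in Gel against Sham. Its 8 areas ran from 44.5 through a median of 67.7 to 83.0 in Sham, from 28.6 through 42.8 to 67.5 under Gel, and from 24.5 through 46.5 to 65.4 under CuNZ@Gel. The Sham specimens themselves lay apart, at 80.6 and 51.4, and specimen 2 was close to the treated ones, which stood at 43.3 and 47.8 under Gel and at 40.5 and 52.8 under CuNZ@Gel. The difference was -0.56 (SE 0.20, adjusted p = 0.139) under Gel and -0.50 (SE 0.20, adjusted p = 0.279) under CuNZ@Gel. Without Sham specimen 2 the first was -0.88 and passed the threshold, with an adjusted p of 0.0256, and it also passed with areas as samples. Without Sham specimen 1 it was -0.23 (adjusted p = 0.925), and the second was -0.17.

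Psmd2, a scaffold of the 19S base, had 56.1 and 49.5 in Sham, 40.3 and 48.2 under Gel, and 34.6 and 38.7 under CuNZ@Gel, with a difference for CuNZ@Gel of -0.51 (SE 0.20, adjusted p = 0.258). Psmd4, the ubiquitin receptor of the base, had 53.2 and 43.4, 35.5 and 47.5, and 39.5 and 40.9, overlapping between Sham and Gel. Psmd13 had 51.1 ± 8.68, 44.9 ± 4.01 and 43.3 ± 1.12. Psmd11 was the member above background that differed most between the hydrogels, at 32.3 and 28.6 under Gel and 22.9 and 24.4 under CuNZ@Gel, a difference of -0.53 (SE 0.21, adjusted p = 0.451). Its lowest area, 3.07, rests on 1 count in Segment 2 of CuNZ@Gel specimen 1. Psmd1, the largest scaffold subunit, stood at 10.04 and 12.1 in Sham, 16.02 and 14.2 under Gel, and 11.01 and 16.3 under CuNZ@Gel, and had positive differences of 0.48 and 0.30 (adjusted p = 0.449 and 0.731). It was above background in only 8 of 24 areas, 2 of them in Segment 2.

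The activators overlapped between Sham and each hydrogel group. Psme1, the PA28 alpha subunit and a classic interferon-gamma target, had 134 and 101 in Sham, 88.2 and 132 under Gel, and 106 and 123 under CuNZ@Gel, and the specimens of 1 treatment differed as much as those of different treatments. The interval of CuNZ@Gel against Sham was -0.42 to 0.33. Psme2, its partner, had 34.5 ± 2.86, 35.1 ± 5.56 and 35.4 ± 1.82 in Sham, Gel and CuNZ@Gel. Psme3, the nuclear PA28 gamma, and Psme4, the activator PA200, differed from Sham by between -0.13 and 0.12. Between the hydrogels their specimens did not overlap, at 25.9 and 26.8 under Gel and 29.7 and 31.4 under CuNZ@Gel for Psme3, and at 24.1 and 27.3 against 30.1 and 31.3 for Psme4. The differences of 0.21 and 0.25 had adjusted p-values of 0.967 and 0.956 by limma, so this separation is not read as a difference. For these 4 the median difference from Sham was -0.11 under Gel and 0.07 under CuNZ@Gel, running over the alternatives from -0.29 to 0.14 and from -0.02 to 0.25. Between the hydrogels it was 0.14, with 4 of 4 above 0 beside 50.8% of targets of like level. The median of the 4 minus that of like targets ran from 0.16 to 0.36 over the alternatives in CuNZ@Gel against Sham, from 0.08 to 0.33 between the hydrogels and from -0.03 to 0.17 in Gel against Sham. Psmf1, an inhibitor of the 20S core, was above background in 3 of 24 areas, at 7.99 to 13.4 in the 6 specimens, with differences from Sham of 0.17 and 0.28.

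The assembly chaperones, which build the alpha ring (Psmg1 to Psmg4) and the 19S base (Psmd5, Psmd9 and Psmd10), were measured at medians of 3.07 to 10.1, under the background. Their differences from Sham ran from -0.16 to 0.65 under Gel and from -0.16 to 0.76 under CuNZ@Gel, and at these levels a Segment 2 area had a median of 2.5 to 6 counts per chaperone.

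Between segments, which come from the same regions, 1 of 48 members was called, beside 1.93% of all targets tested (0.34% higher in Segment 2) and 5.42% of targets of like level. Here limma compared Segment 2 with Segment 1 over 6 specimens, with the specimen as a block. The member was Psmd9, an assembly chaperone of the 19S base, higher in Segment 2 by 0.81 on the log2 scale (SE 0.23, adjusted p = 0.0486). Its signal ran from 1.84 through a median of 3.55 to 8.49 in the 12 Segment 1 areas and from 3.07 through 8.11 to 20.4 in the 12 Segment 2 areas, higher in Segment 2 in 10 of 12 regions and in 6 of 6 specimen means. It was above background in 1 of 24 areas and rested on a median of 8.5 counts in Segment 1 and 5 in Segment 2. The call was lost in 11 of 17 alternatives, among them DESeq2, thinning of all areas to 86386 counts, and leaving out Sham specimen 2, CuNZ@Gel specimen 1, CuNZ@Gel specimen 2 or Gel specimen 2, with adjusted p-values from 0.0385 to 0.668. Of all targets above background, 0 were higher in Segment 2 by limma and 305 lower, and the 67 higher calls are thus of targets under the background. The lowest value of an area, 1 count, was worth a median of 0.647 in Segment 1 areas and 2.04 in Segment 2 areas. Its part in these calls was not tested.

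The median segment difference of the 29 members above background was -0.10, beside -0.20 for targets of like level, and 31% of the members lay above 0 beside 10.9% of those targets. Over the alternatives the members' median exceeded that of like targets by 0.08 to 0.12 and itself ran from -0.23 to 0.05. By treatment the medians of members and of like targets were 0.02 and -0.12 in Sham and -0.12 and -0.24 under Gel, but -0.24 and -0.22 under CuNZ@Gel, where the members thus lay below. The 29 intervals had bounds from -0.74 to 0.45, with the median interval reaching 0.27 to either side. The 10 subunits of the 20S core had a median of -0.05, the 12 of the 19S particle -0.10, the 3 inducible catalytic subunits -0.05 and the 4 activators -0.13. Psmd11 had 29.7 ± 2.38 (SD, n = 6) in Segment 1 and 24.1 ± 5.10 in Segment 2, lower in 6 of 6 specimens, a difference of -0.42 (SE 0.15, adjusted p = 0.132). Psme4 had 31.7 ± 3.01 and 25.4 ± 5.03, lower in 5 of 6, a difference of -0.39 (SE 0.14, adjusted p = 0.136). Both passed the threshold when areas were scaled to their median instead. Segment 2 areas held fewer counts, and the summed macrophage signal was 977 in Segment 1 and 788 in Segment 2, where Csf1r, Mrc1 and Lyz2 were called lower by 0.49, 0.56 and 0.33. The fibroblast sum was 13183 and 10339, and 10 of 10 fibroblast genes had negative differences, with Col1a1 and Col6a1 called lower by 0.43 and 0.46. Of the 5483 targets above background, 4856 had negative differences and 305 were called lower, so most measured targets went the same way. The part of depth and of these cells in the differences was not tested.

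**Figure D4:**
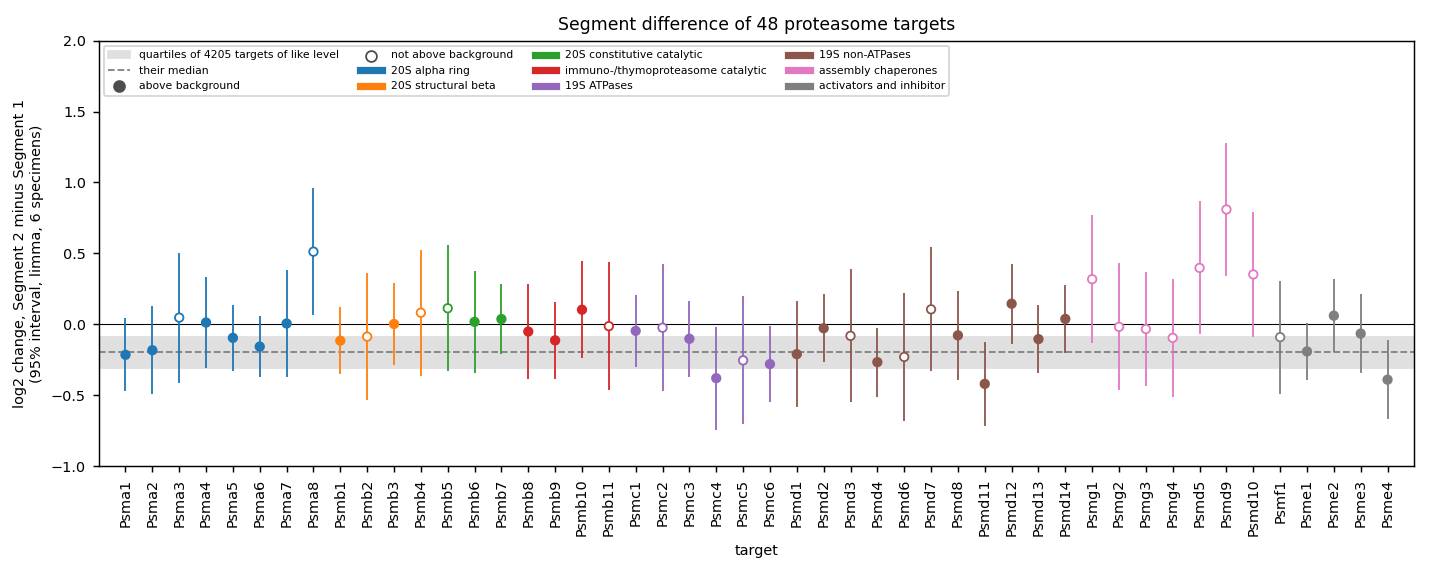
Log2 difference of Segment 2 minus Segment 1 for the 48 proteasome targets with 95% intervals from limma over 6 specimens; filled points are above background, open points are not, colours are roles, and the grey band spans the quartiles of 4205 other targets of like level. Psmd9 is the highest open point at 0.81, and the filled points lie between -0.42 and 0.14.

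The segment difference did not pass the test of a change between treatments for any member. By limma's interaction test 0 of 48 members were called, beside 0.0507% of all targets, with 3 at an unadjusted p under 0.05 (Psmd3, Psmd5 and Psmb6) and 0 called by edgeR or DESeq2. Psmb6 was higher in Segment 2 of Sham by 0.51 and lower in Segment 2 of CuNZ@Gel by 0.58, but the interaction had an adjusted p of 0.87, and the lowest CuNZ@Gel area, 3.07, rests on 1 count. Within CuNZ@Gel, where 0 of 48 members were called beside 0.608% of all targets, Psmd11, Psmc4 and Psme1 were lower in Segment 2 by 0.82, 0.87 and 0.41, with adjusted p-values of 0.143, 0.251 and 0.294.

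Proteasome subunits varied from area to area about as much as other targets of like level. The median SD of the log2 signal over the 12 Segment 1 areas was 0.278 for the 29 members above background and 0.279 for targets of like level, and over the 12 Segment 2 areas 0.46 and 0.467. The median Pearson correlation over the 231 pairs of 20S and 19S subunits was 0.369 in Segment 1 and 0.341 in Segment 2, beside 0.09 and 0.117 for pairs of targets of like level. Psmb8 had a median correlation with the 22 subunits of -0.343 in Segment 1 and -0.065 in Segment 2. Among Psmb8, Psmb9, Psmb10, Psme1 and Psme2, the 10 pairs ran from -0.169 (Psmb8 with Psme2) to 0.713 (Psmb9 with Psme1) in Segment 1 and from -0.259 (Psmb8 with Psme1) to 0.552 (Psmb10 with Psme2) in Segment 2. These are descriptions over 12 areas of 6 specimens, which share regions, depth and scaling, and no test was made.

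Around the proteasome, 23 genes of a list of ubiquitin carriers, deubiquitinases, assembly and control factors were measured, 18 of them above background. In Gel against Sham 1 of 23 was called, beside 2.42% of all targets tested and 7.59% of those of like level. It was Rad23b, a shuttle that carries ubiquitinated proteins to the proteasome. Rad23b had 105 and 106 in Sham, 58.5 and 78.5 under Gel, and a difference of -0.63 (SE 0.19, adjusted p = 0.0431 by limma). Under CuNZ@Gel it had 73.1 and 66.5, also below both Sham specimens, and was not called. In CuNZ@Gel against Sham and against Gel 0 of 23 were called, beside 1.31% and 0.943% of all targets. The 18 above background had median differences from Sham of -0.27 and -0.33, beside -0.26 and -0.32 for the 20S and 19S subunits. Nfe2l2, which encodes NRF2, a regulator of proteasome genes in oxidative stress, had 57.7 and 65.1 in Sham, 67.3 and 64.6 under Gel, and 54.3 and 66.1 under CuNZ@Gel, overlapping throughout. Between segments, where 1.93% of all targets were called, 1 of 23 was called. Uchl5, a deubiquitinase of the 19S particle, was higher in Segment 2 (0.86, adjusted p = 0.0223 by limma), though under the background. Within CuNZ@Gel, 2 of 23 were called by limma, beside 0.608% of all targets. Pomp, the maturation factor of the 20S core, was lower in Segment 2 by 0.93 (adjusted p = 0.0107), and the ubiquitin gene Ubb by 0.25 (adjusted p = 0.0255). Pomp's lowest CuNZ@Gel area was 6.13, beside a median of 43.0 over the 8 areas. It was Segment 2 of region 1 of specimen 1, the shallowest area (86386 counts, each worth 3.07).

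Of 18 genes of class I presentation and interferon response, only Erap1 and Irf1 were above background, so the partners of the immunoproteasome were hardly measured here. H2-K1 and H2-D1 among them carry mouse names, and whether the probes bind the rat transcripts was not tested. In CuNZ@Gel against Sham 1 of 18 was called, beside 1.31% of all targets tested. It was the interferon-gamma-induced chemokine Cxcl9, higher by 1.18 (adjusted p = 0.0351 by limma). It had 1.74 and 2.30 in Sham, 4.79 and 3.49 under Gel, and 3.15 and 43.7 under CuNZ@Gel, the last set by 1 area at 165, and it was not above background by the rule used here. In Gel against Sham and CuNZ@Gel against Gel, limma called 0 of 18, beside 2.42% and 0.943% of all targets.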

How the data were processed

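The deposited values, 1 file per area, are signals that the authors had scaled so that the 75th percentile of each area is 12.3 (12.1 in 1 area), per the file values; no label or file names the software, the reference build or the way probes were counted. At least 99.98% of an area's values are whole multiples, within 0.01 count, of its smallest step, from which whole counts were recovered.

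A target was tested if it exceeded the single negative probe in at least 4 areas (19728 of 19963). limma 3.58.1 (trend and robust) in R 4.3.3 compared log2(signal + 1) over specimen means for treatments (3 residual degrees of freedom beside a median prior of 133, so the error is mostly borrowed from other targets) and over specimen and segment means, with the specimen as a block, for segments. Adding 1 to the signal shrinks the fold of low targets, and between segments the value of the lowest count differs as well. edgeR 4.0.16 (quasi-likelihood) and DESeq2 1.42.0 on summed recovered counts called 368 and 152 targets in Gel against Sham, where limma called 478. The fits were tested on simulated data first.

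The members, roles, gene lists and tests were chosen with earlier results of these data known. Named genes are members past the threshold, those of smallest p in each role, the catalytic, PA28, Psmd14 and Psmf1 members, and called genes of the lists; others were named to complete a role after their values were seen. Specimens of the same number in different treatments did not deviate together (correlations of 0.0033, -0.0309 and -0.0263 over 5483 targets), so they were not paired. Alternatives are described with their effects at the end.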

Additional observations from a re-analysis of the deposited data

Results flagged for a closer look

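In 17 of 144 groups of 8 areas (a target in a treatment), the highest or the lowest area lay apart from the others by more than Dixon's 95% limit of 0.526 of the group's range, where chance alone gives about 1 in 20. In 16 of the 17 the area was of Segment 2, the less deeply counted segment, and 4 were the same area, Segment 2 of region 1 of Sham specimen 1.

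Among targets above background, 2 were high. Psmb10, the inducible catalytic subunit, reached 28.6 in a Gel area with the others at 8.18 to 17.8, and Psme3, PA28 gamma, reached 42.9 in a Sham area with the others at 22.5 to 31.9. Psme4, PA200, was low at 9.20 in Sham, on 3 counts. The scaffold Psmd1 was low at 3.07 in Sham, and Psmb6 and Psmd11 were low at 3.07 in CuNZ@Gel, each on 1 count. The ATPase Psmc1 was low at 21.8 in CuNZ@Gel, on 16 counts, and Psmb7, the only 1 in a Segment 1 area, was low at 29.2 there, on 31 counts, with the others at 36.8 to 43.3.

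Psmb5, the constitutive subunit with chymotrypsin-like activity, reached 61.3 in 1 Sham area, on 30 counts, with the others at 2.04 to 7.45, the widest gap of the 17 (0.909 of the range). The remaining areas were high and belonged to targets under the background. Psmd9 reached 20.4 in the Sham area that also enters its segment difference, on 10 counts, Psmg3 19.6 on 8 counts, Psmb2 12.3 on 4, Psmd10 8.18 on 4 and Psmc2 6.13 on 3, all in Sham. Psma8 reached 10.2 on 5 counts and Psmd7 7.19 on 17 counts in Gel, and Psmc5 10.9 on 8 counts in CuNZ@Gel. The causes were not tested.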

How the results depend on the processing

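In Gel against Sham, 1 member (Psmd14) was called with areas as samples, and 0 to 1 when a specimen was left out (1 without Sham specimen 2). In CuNZ@Gel against Sham, 1 was called by edgeR and with Segment 1 areas only (Psmc2), and 1 with only targets above background and with areas as samples (Psmb3). CuNZ@Gel against Gel and the interaction had 0 throughout. Between segments, 3 members were called with median scaling, and 0 with quantile normalization, only targets above background, a pseudocount of 0.5, means of linear values, limma without trend and robust, thinning, DESeq2, and without the 3 areas under 150000 counts (chosen after seeing the data); leaving out a specimen gave 0 to 1. With the specimen number as a replicate block, 0 members were called in each treatment comparison. For CuNZ@Gel against Sham: Psmd3, the difference turned to -0.117 with thinning and -0.259 with Segment 1 areas only; it is under the background. The causes were not tested. The median of the 20S and 19S subunits minus that of like targets ran over the alternatives from -0.15 to -0.02 in Gel against Sham and from -0.25 to -0.03 in CuNZ@Gel against Sham, nearest 0 without Sham specimen 1; several alternatives alter only the test or the targets tested and leave this value as it was. Over all targets, counts moved by over 1.5 times in some settings: from 478 to between 152 (DESeq2) and 771 (areas as samples) in Gel against Sham, from 259 to between 44 (limma without trend and robust) and 517 (areas as samples) in CuNZ@Gel against Sham, from 186 to between 55 (DESeq2) and 293 (without Gel specimen 2) between the hydrogels, from 381 to between 0 (limma without trend and robust) and 1144 (median scaling) between segments, and from 10 to between 0 and 36 for the interaction with a specimen left out. Low counts in Segment 2 limit what members under the background can show.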
